A study of Mus musculus with 6 samples.

Results

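The ligands, receptors and inhibitors of the interleukin 1 (IL-1) and interleukin 6 (IL-6) families were followed in endothelial cells (ECs) sorted from mouse lungs that carried human breast cancer metastases. The members were Il1a, Il1b, Il33, Il1rn, Il1r1, Il1rl1, Il6, Il6ra, Il6st and Osmr. A probe set was used when its platform annotation gave one of these symbols and no other, which gave 18 of the 45101 probe sets on the array and 9 of the 10 members, out of 18194 genes named in this way. Il1rl1, the receptor for IL-33, had 0 such probe sets and was not analysed here.

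ECs came from NSG mice, which are immunodeficient and lack mature T, B and NK cells, aged 6 to 8 weeks at the start. All mice received MDA231-LM2 cells intravenously. This human breast cancer line was derived from MDA-MB-231 and colonizes the lung efficiently. The cancer cells expressed a control short hairpin RNA (shControl) or one against TNC (shTNC), the gene for the extracellular matrix protein tenascin C, and the lungs were taken 3 weeks later, on day 20. CD31+ cells were collected after exclusion of cells with CD45, CD11b, EpCAM, CD140a, CD140b or GFP. There were 3 biological replicates in each group, each on 1 Affymetrix mouse whole-genome array. The labels do not state which hairpin against TNC was used, or whether a replicate was 1 mouse or a pool. TNC was targeted in human cells that the sort removed, so these mouse arrays do not check the knockdown. There was no tumour-free lung, and the comparison asks how ECs differ between lungs with shControl and with shTNC cancer cells. The study reports less lung colonization after TNC knockdown. Tumour load of these lungs was not read here, so less tenascin C and a smaller tumour load cannot be told apart.

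IL-1α, IL-1β and IL-33 are alarm cytokines of one family. IL-1α and IL-1β act on ECs through the receptor IL1R1, whose signal runs through MyD88, IRAK kinases and TRAF6 to NF-κB and induces adhesion molecules and chemokines, while IL1RN is a secreted antagonist that occupies the same receptor. IL-6 binds IL6RA, on the cell or in soluble form, and signals through the shared subunit IL6ST (gp130), JAK kinases and STAT3, and oncostatin M uses IL6ST together with OSMR.

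No member passed an adjusted p of 0.05 (limma, Benjamini-Hochberg over all probe sets), and neither did any other probe set on the array (0% of 45101, smallest adjusted p 0.126). The members' adjusted p ranged from 0.225 to 0.983. At an unadjusted p under 0.05, 2 member probe sets were higher in shTNC (Il1a and Il6) and 3 were lower (both of Il6ra and 1 of 4 of Il6st), where 6.66% of all probe sets were higher and 6.3% were lower at that level. With 1 probe set per gene, the one with the highest mean, 4.54% of genes were higher and 7.12% lower. None passed the study's own thresholds (unadjusted p under 0.05, adjusted p under 0.25 and a log2 difference beyond 0.75), which 0.182% of all probe sets passed. Each difference below is a log2 value of shTNC minus that of shControl, given with its standard error from limma. They are values with no call at the adjusted level.

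These promoters are shown because they belong to the members whose most abundant probe set had an unadjusted p under 0.05, Il1a and Il6 (higher in shTNC) and Il6ra (lower). Each is the 250 bases before the transcription start in RefSeq on GRCm38.p6, 5′ to 3′ on the strand of the gene. The Il1a promoter is chr2:129309973-129310222 on the minus strand, that of Il6 is chr5:30012864-30013113 on the plus strand, and that of Il6ra is chr3:89913197-89913446 on the minus strand. Capitals mark matches on either strand to the NF-κB motif GGGANTTTC, the AP-1 motif TGANTCA, the C/EBP motif TTGCNNAA or the STAT motif TTCNNNGAA, and no matches overlap.
Il1a: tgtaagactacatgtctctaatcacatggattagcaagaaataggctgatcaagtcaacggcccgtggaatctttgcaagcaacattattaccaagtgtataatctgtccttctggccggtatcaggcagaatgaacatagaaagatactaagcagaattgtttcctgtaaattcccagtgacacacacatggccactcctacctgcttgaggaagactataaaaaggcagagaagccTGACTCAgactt
Il6: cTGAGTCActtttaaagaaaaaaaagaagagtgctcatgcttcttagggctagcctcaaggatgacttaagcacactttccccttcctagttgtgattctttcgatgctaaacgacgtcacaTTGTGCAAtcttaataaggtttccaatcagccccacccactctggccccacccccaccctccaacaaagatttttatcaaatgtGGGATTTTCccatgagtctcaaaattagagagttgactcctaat
Il6ra: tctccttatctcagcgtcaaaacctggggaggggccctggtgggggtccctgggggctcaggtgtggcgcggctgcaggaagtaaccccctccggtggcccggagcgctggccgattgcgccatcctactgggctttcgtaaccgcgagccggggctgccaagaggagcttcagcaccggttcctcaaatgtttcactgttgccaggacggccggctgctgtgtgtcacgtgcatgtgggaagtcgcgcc
The Il6 window held an NF-κB match at -44 to -36, a C/EBP match at -128 to -121 and an AP-1 match at -249 to -243 relative to the start. The Il1a window held an AP-1 match at -12 to -6, and the Il6ra window held none of the 4 motifs. Over the 32851 RefSeq promoter windows of the same length, 0.941% held the NF-κB motif, 6.75% the AP-1 motif, 9.56% the C/EBP motif and 7.02% the STAT motif. Among the 15 windows of the members, 1, 3, 4 and 0 did.

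Signal strength set how far each member could be read. The deposited values carry no detection call, so background was taken as the 95th percentile of the mean levels of 44 olfactory receptor probe sets, 7.48, with 67.2% of all probe sets above it. By this measure 15 member probe sets were above background and 3 near it. The most abundant probe set of 8 members was above background and that of Il6 was near it. Olfactory receptor probe sets differed between the groups by at most 0.343 in either direction.

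**Figure D1:**
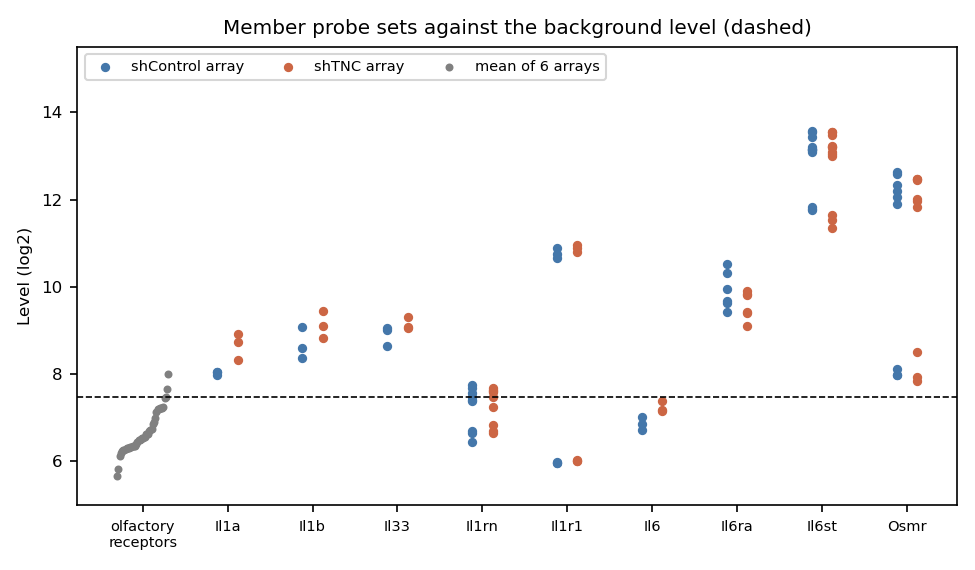
Log2 level of every member probe set in each array (blue, shControl, and orange, shTNC), with the 6-array means of the 44 olfactory receptor probe sets in grey and the background level of 7.48 as a dashed line. All Il6 values lie below the line and all Il6st values above it, and levels of different probe sets are not compared.

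**Figure D2:**
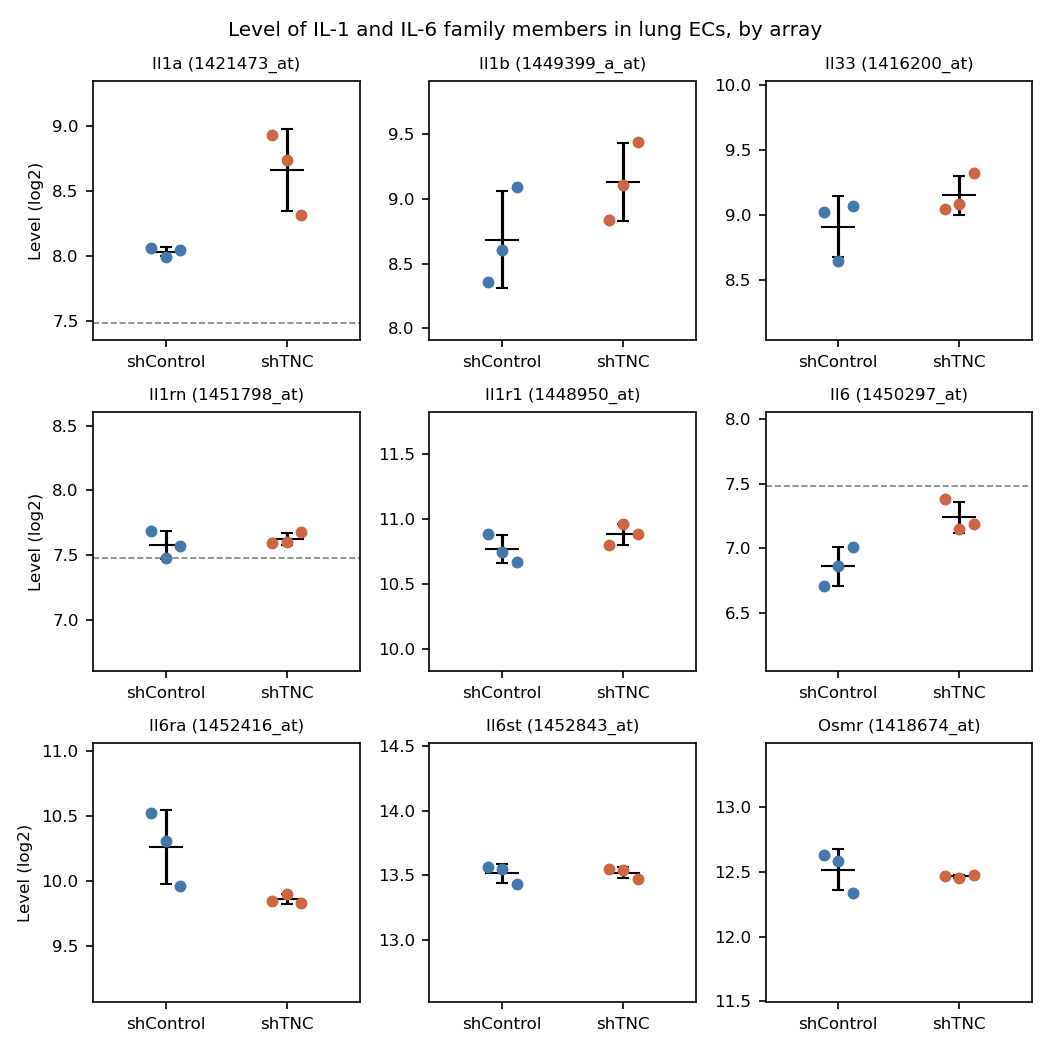
Log2 level of each member's most abundant probe set in the 3 shControl and 3 shTNC arrays, with mean ± SD, where a dashed line marks the background level of 7.48 if it falls in the panel. Il1a and Il6 show separate groups with shTNC higher, and Il6ra shows separate groups with shTNC lower.

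Among the IL-1 ligands, Il1a stood furthest from shControl. Its values were 8.06, 7.99 and 8.04 in shControl and 8.93, 8.74 and 8.31 in shTNC, and the groups did not overlap. The means were 8.03 ± 0.036 and 8.66 ± 0.317 (SD, n = 3 each), and the difference was 0.63 ± 0.15, or 1.55-fold, with an adjusted p of 0.225 by limma. All arrays were above their own background level, which was 7.77 in shControl replicate 2. The olfactory receptor probe set of Olfr159 gave 8.05, 8.34 and 7.90 in shControl and 7.88, 7.89 and 8.02 in shTNC. The shControl values of Il1a thus lay at the level of a probe set from the background reference. Il1a encodes IL-1α, which is made as an active precursor. Of the probe sets above background, 0.466% were at least as far above shControl. Over all probe sets, the groups stood apart with shTNC higher in 8.92% and with shTNC lower in 10.5%, against 4 and 4 of the 18 member probe sets. Leaving out any 1 array left the Il1a difference between 0.50 and 0.81.

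Il1b, which encodes the inflammasome-processed IL-1β, was less separated. Its values were 8.36, 8.60 and 9.09 in shControl and 8.84, 9.11 and 9.44 in shTNC, so the groups overlapped. The difference was 0.44 ± 0.21 (95% interval -0.04 to 0.92, adjusted p 0.414 by limma). Leaving out 1 array gave 0.28 without shControl replicate 1, 0.29 without shTNC replicate 3 and 0.65 without shControl replicate 3. Il33, the nuclear alarmin released by damaged cells, gave 9.02, 8.64 and 9.07 in shControl and 9.05, 9.08 and 9.32 in shTNC. Its groups overlapped, and the difference of 0.24 ± 0.14 had an adjusted p of 0.489 by limma. It was 0.11 without shControl replicate 2 and 0.16 without shTNC replicate 3, in a leave-out range of 0.11 to 0.32.

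The antagonist Il1rn was close to background and gave values between 7.47 and 7.69 in all arrays. Its difference was 0.05 ± 0.09 (95% interval -0.16 to 0.26, adjusted p 0.858 by limma). A second probe set differed by -0.06 ± 0.14 and the last, near background, by 0.12 ± 0.10. None of the 3 separated the groups beyond their spread. The receptor Il1r1 was well above background, at 10.88, 10.75 and 10.67 in shControl and 10.80, 10.96 and 10.88 in shTNC. The groups overlapped, with a difference of 0.12 ± 0.095 and an interval of -0.10 to 0.33. Its other probe set lay near background and was higher by 0.03 ± 0.08, with groups that did not overlap. Il1r1 belongs to the genes with which the study scored EC inflammation.

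Il6, the ligand of the second family, was higher in all 3 shTNC arrays but near background. Its values were 6.71, 6.86 and 7.01 in shControl and 7.38, 7.15 and 7.19 in shTNC, without overlap. Only 1 of the 6 arrays exceeded its own background level. The means were 6.86 ± 0.149 and 7.24 ± 0.123 (SD, n = 3 each), and the difference was 0.38 ± 0.11 with an adjusted p of 0.266 by limma. Among probe sets near background, 4.98% were higher in shTNC at an unadjusted p under 0.05 and 2.81% were at least as far above shControl. Leaving out any 1 array gave 0.30 to 0.45.

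Il6ra, the ligand-binding receptor that gives a cell its own response to IL-6, was lower in shTNC on both of its probe sets. The stronger one gave 10.53, 10.31 and 9.96 in shControl and 9.85, 9.90 and 9.83 in shTNC. These groups did not overlap, and the difference was -0.41 ± 0.14 (1.33-fold lower, 95% interval -0.73 to -0.09, adjusted p 0.303 by limma). The second gave 9.43, 9.64 and 9.68 in shControl and 9.11, 9.41 and 9.40 in shTNC, also without overlap, and differed by -0.28 ± 0.12. Both probe sets read the same gene in the same arrays and are not independent. The second lost its unadjusted p under 0.05 without shControl replicate 2 (-0.25), shControl replicate 3 (-0.23) or shTNC replicate 1 (-0.18). On the stronger probe set the unadjusted p was above 0.05 without shControl replicate 1 (0.0625), shControl replicate 2 (0.0501) or shTNC replicate 3 (0.0501), with a difference of -0.28 to -0.56 over all leave-outs.

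Il6st, the signalling subunit shared by the family, was strongly expressed and differed little on its most abundant probe set. That probe set gave 13.57, 13.55 and 13.43 in shControl and 13.55, 13.54 and 13.47 in shTNC, a difference of 0.01 ± 0.085 (95% interval -0.19 to 0.20). A second probe set differed by 0.06 ± 0.08 and another by -0.11 ± 0.08, each without overlap and in opposite directions. The last of the 4 probe sets was lower in shTNC, with 11.78, 11.76 and 11.84 in shControl and 11.64, 11.54 and 11.36 in shTNC, and differed by -0.28 ± 0.098 (adjusted p 0.313 by limma). Its unadjusted p was above 0.05 without shControl replicate 3 (0.0583, difference -0.25) and without shTNC replicate 3 (0.0937, difference -0.20). Measured within each array, this probe set minus the most abundant one was -1.79, -1.79 and -1.59 in shControl and -1.91, -2.00 and -2.11 in shTNC. The difference of -0.28 between the groups had p = 0.1 by a two-sided exact permutation test, the smallest p that 3 against 3 arrays allow, and the probe set was singled out after its values were seen. Which transcripts each probe set reads was not tested.

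Osmr, the oncostatin M receptor, was abundant and near its shControl level. Its strongest probe set gave 12.63, 12.59 and 12.34 in shControl and 12.47, 12.45 and 12.47 in shTNC, with overlap and a difference of -0.05 ± 0.10 (95% interval -0.28 to 0.18). The other 2 differed by -0.12 ± 0.11 and 0.06 ± 0.17, and both overlapped. Osmr is in the same score. Over the 9 members, 7 of the most abundant probe sets were higher and 2 lower in shTNC, with a median difference of 0.12. The median over all genes was -0.03, and 58.3% of genes were lower. The higher ones include Il6, near background, and Il6st and Il1rn, at 0.01 and 0.05, which were lower on other probe sets. Osmr, counted as lower, was higher on another. The count therefore depends on the choice of probe set.

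**Figure D3:**
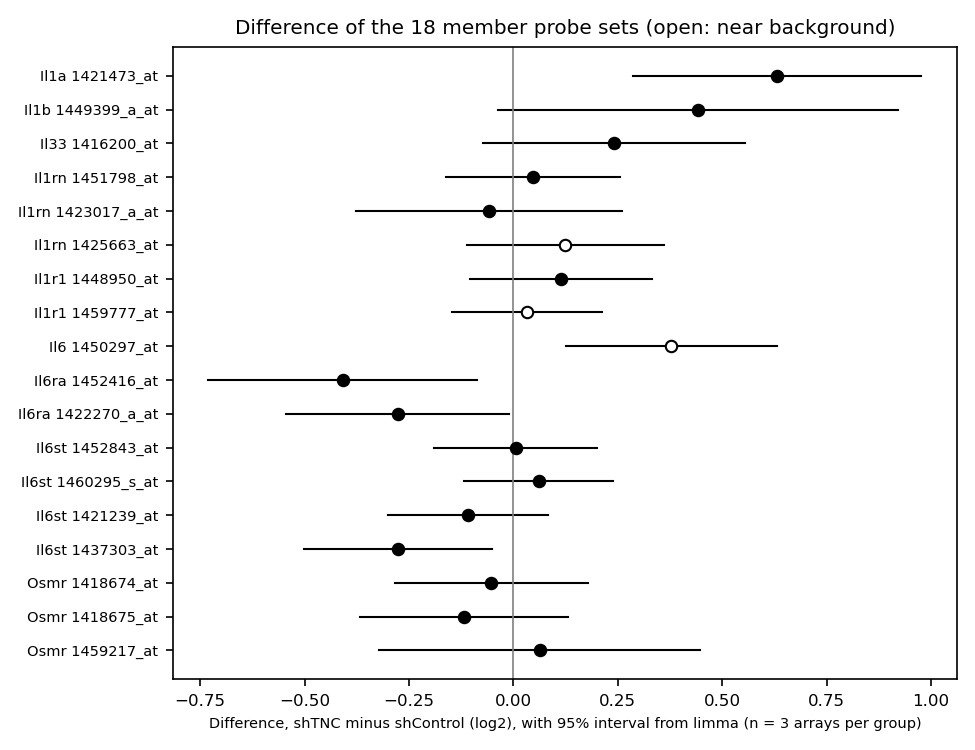
Log2 difference, shTNC minus shControl, of every member probe set with its 95% limma interval, where open symbols are near background. Il1a and Il6 lie above 0 and the 2 Il6ra probe sets below it, and the Il6st probe sets lie on both sides of 0.

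The other genes of both pathways were followed in 6 lists, counted on each gene's most abundant probe set. Over all genes counted in this way, 4.54% were higher and 7.12% lower at an unadjusted p under 0.05. The list of other IL-1 family ligands, receptors and decoys had 13 matched genes, of which only 5 were above background, and 0 were higher or lower at an unadjusted p under 0.05, with a median difference of 0.03 over all 13. Il1rap, the accessory chain of the IL-1 receptor, differed by -0.19 ± 0.09 on its most abundant probe set and by 0.01 on each of the other 2 above background, and Il18bp, which binds and blocks IL-18, by 0.18 ± 0.09. Il1rl2, the IL-36 receptor, differed by -0.13 ± 0.09 on its stronger probe set and by -0.52 ± 0.15 on another, both without overlap. The weaker probe set, not counted in the list, had an unadjusted p of 0.00889 and an adjusted p of 0.267 by limma. Of 15 matched genes in IL-1 processing and signalling, 1 was lower at that level, and the median difference was 0.0065. This was Traf6, the ubiquitin ligase below the IL-1 receptor, at 11.33, 11.25 and 11.52 in shControl and 10.98, 11.09 and 11.10 in shTNC. It differed by -0.31 ± 0.10 (adjusted p 0.287 by limma), while its other probe sets above background gave -0.16, -0.11 and 0.14. Irak1, Irak2 and Ikbkg each differed by -0.16 on their most abundant probe set. The other probe sets of Irak1, an IL-1 receptor kinase, ranged from -0.19 to 0.13. Those of Ikbkg, the regulatory subunit of the IκB kinase, ranged from -0.27 to 0.34, and the highest had an unadjusted p of 0.0249, opposite in direction to the most abundant one.

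Of 10 matched IL-6 family ligands and receptors, 1 was lower, Il27ra, a receptor chain that pairs with IL6ST, which differed by -0.33 ± 0.12 without overlap. The median of that list was -0.05. Cntfr differed by -0.55 ± 0.36 and, on a second probe set, by -0.53 ± 0.20 with an unadjusted p of 0.0262. Osm, the oncostatin M gene, differed by -0.13 ± 0.12 and Lifr by 0.10 ± 0.09, and the groups of all 3 genes overlapped on these probe sets. In the 12 matched JAK-STAT3 genes, Pias3, an inhibitor of STAT3, was higher at an unadjusted p under 0.05, by 0.30 ± 0.12, and its groups overlapped. Its other probe set differed by 0.06 ± 0.11, also with overlap. The median of the 12 genes was 0.02. The kinase Jak1 was lower in shTNC without overlap on all 3 probe sets, by -0.16 ± 0.08, -0.18 ± 0.09 and -0.19 ± 0.08, and Stat3 by -0.11 ± 0.08 on its most abundant probe set. The other 3 probe sets of Stat3 overlapped and differed by -0.01, 0.07 and 0.04. Stat5b, a related transcription factor, was higher by 0.16 ± 0.10 and by 0.05 ± 0.09 on its 2 probe sets, both with overlap. None of the Jak1, Stat3 or Stat5b probe sets passed an unadjusted p of 0.05.

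**Figure D4:**
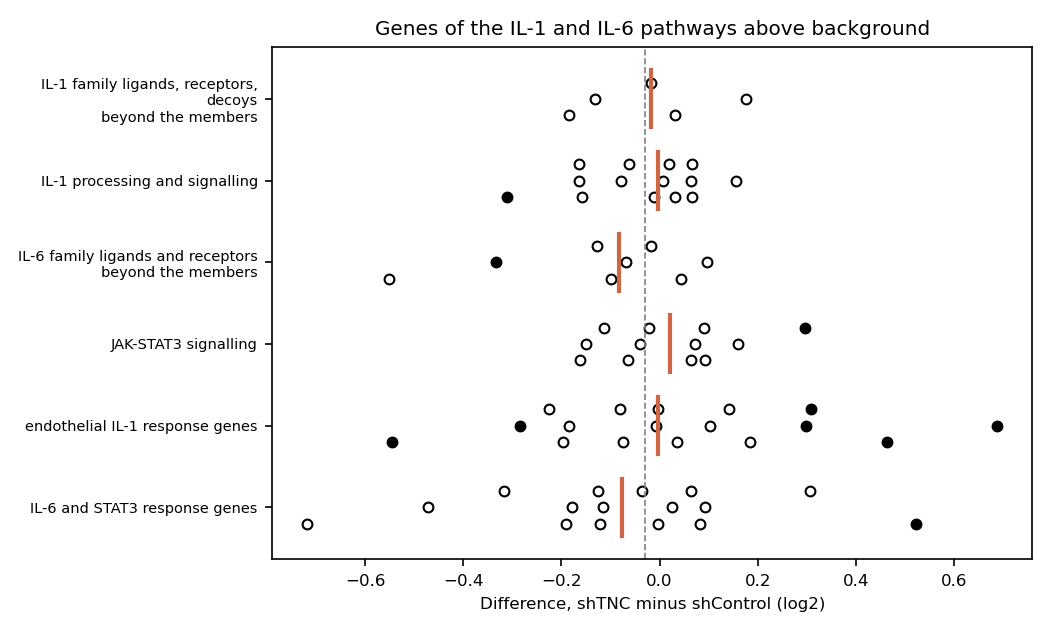
Log2 difference, shTNC minus shControl, of the genes above background in the 6 pathway lists, with the list's median over these genes as an orange bar and the median of all genes (-0.03) as a dashed line, and filled points have an unadjusted p under 0.05. Every list has genes on both sides of 0.

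Genes that ECs are known to induce in response to IL-1 were split. Of 19 matched genes, 4 were higher and 2 lower at an unadjusted p under 0.05, and the median difference was -0.00383. Over all genes, 4.54% were higher and 7.12% lower at that level. Nfkbiz, which encodes the NF-κB cofactor IκBζ, was 10.79, 11.17 and 11.18 in shControl and 11.63, 11.85 and 11.73 in shTNC, a difference of 0.69 ± 0.13 with an adjusted p of 0.184 by limma. Its other probe sets differed by 0.34 and 0.05. The adhesion molecule Vcam1 was higher on all 3 probe sets without overlap, by 0.31 ± 0.10, 0.39 ± 0.12 and 0.27 ± 0.09. The selectins, which capture leukocytes, lay the other way. Sele (E-selectin) was 9.97, 9.29 and 9.64 in shControl and 8.88, 9.20 and 9.19 in shTNC, a difference of -0.55 ± 0.17 without overlap. Selp (P-selectin) differed by -0.28 ± 0.09 without overlap on its most abundant probe set. Its other probe sets differed by -0.32 ± 0.11 without overlap and by -0.16 ± 0.12 with overlap. The other higher genes of the list were Ptgs2, the cyclooxygenase, by 0.46 ± 0.16 and the chemokine Cxcl1 by 0.30 ± 0.12, named here after their values were seen. Of 16 IL-6 and STAT3 response genes, 1 was higher, the AP-1 subunit Junb, by 0.52 ± 0.13 (adjusted p 0.226 by limma), and the median was -0.08. Cebpb, Cebpd and Serpina3n differed by -0.47 ± 0.23, -0.32 ± 0.15 and -0.72 ± 0.37 on their most abundant probe sets, all with overlap. A second probe set of Cebpd was lower without overlap, by -0.34 ± 0.12 with an unadjusted p of 0.0216, and that of Cebpb differed by -0.04. Socs3, a direct STAT3 target, differed by 0.09.

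The sorted cells carried the endothelial markers. Pecam1 was 13.92 to 14.03 and all 10 endothelial genes were above background, with a mean level of 13.44 to 13.51 in shControl and 13.45 to 13.48 in shTNC. Markers of other cells that can make or receive these cytokines were also read. Beside their counts, 4.54% of all genes were higher and 7.12% lower at an unadjusted p under 0.05. Of 11 matched macrophage and monocyte markers, 9 were above background and 3 were lower in shTNC at an unadjusted p under 0.05 (Mrc1, Chil3 and Cd14, named after their values were seen), with a median difference of -0.12 over the list and a mean level of 9.01 to 9.101 in shControl and 8.731 to 8.945 in shTNC. Mean levels of Mrc1, Chil3 and Cd14 were 10.24, 9.84 and 10.74 in shControl and 9.63, 9.16 and 10.42 in shTNC. Adgre1, a macrophage marker, and Itgam, which encodes the CD11b used in the sort, were near background. Ptprc, which encodes CD45, differed by 0.32 ± 0.25 with overlap. The part of these markers in the Il6ra difference was not tested. Of 8 matched neutrophil markers 5 were above background, with a mean level of 7.644 to 8.019 in shControl and 7.616 to 7.989 in shTNC. Of 9 matched markers of mast cells, basophils and group 2 innate lymphoid cells 3 were above background, with Cpa3 and 5 others near it. Gata3, the one called above background, was higher by 0.47 ± 0.10 without overlap (adjusted p 0.2 by limma). Kit and Hdc, also above background, differed by 0.11 ± 0.11 and -0.05 ± 0.19 with overlap. Near background, Mcpt4 was higher and Fcer1a lower at an unadjusted p under 0.05. Which cells carried the Gata3 or Kit signal was not tested. Fibroblast markers averaged 9.424 to 9.781 in shControl and 9.649 to 10.05 in shTNC, and epithelial markers 9.229 to 9.946 and 8.983 to 10.26. Epithelial signal was uneven between genes and arrays. Epcam, used in the sort, was 7.45 to 7.92 in shControl and 7.54 to 7.81 in shTNC. Sftpc was 12.95 to 13.41 and 12.09 to 13.46, and Scgb1a1 was 6.84 to 12.04 and 8.19 to 11.80, both named after their values were seen. Pericyte and smooth muscle markers averaged 8.754 to 8.897 and 8.846 to 9.059, and mesothelial markers 7.763 to 7.93 and 7.69 to 8.792. Of the 10 pericyte and smooth muscle markers 2 were higher at an unadjusted p under 0.05, Myh11 by 0.50 ± 0.10 without overlap (adjusted p 0.184 by limma) and Des by 0.30 ± 0.12. Of 8 mesothelial markers, 5 of them above background, 1 was higher at that level, Gpm6a by 0.76 ± 0.24 with overlap, and the list's median was 0.49. Among neutrophil markers Elane and among epithelial markers Foxj1 were lower, both near background, and 0 of the 10 fibroblast markers were past that level. The genes named in these lists for their p were chosen after their values were seen, and the part of these markers in the members' differences was not tested. In these sorted bulk samples, fewer cells of a type and less RNA per cell cannot be told apart. The 3′ minus 5′ signal of Actb, a sign of RNA integrity, was 0.276 to 0.291 in shControl and 0.197 to 0.274 in shTNC, so the groups did not overlap. That of Gapdh was 0.558 to 0.567 and 0.499 to 0.581, with overlap, and the part of either in the results was not tested. On the first principal component, which held 36.6% of the variance, shControl replicate 2 stood apart at -43.6. The remaining shControl arrays lay at -11.1 and 0.251, and the shTNC arrays between 16.1 and 21.1. Without that array the differences were 0.61 for Il1a, 0.40 for Il1b, 0.11 for Il33 and 0.38 for Il6, and -0.39 and -0.25 for the probe sets of Il6ra.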

How the data were processed

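Lung ECs from mice with shControl or shTNC metastases were measured on 6 arrays, 3 per group as the sample labels give them. The authors deposited 1 log2 value per probe set. Their methods describe robust multiarray averaging of the raw array files in Chipster 3.8.0. Each array holds only 5773 to 6883 distinct values and low values are often tied, so whether every value is a plain result of that method is not settled, and small differences near background are coarse. The scale was taken from the values. The sorted values of the arrays differ by at most 0.07 (log2).

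The 2 groups were compared over all 45101 probe sets by lmFit and eBayes of limma 3.58.1 (R 4.3.3) without covariates, with Benjamini-Hochberg adjustment over all of them. The platform annotation gave 34958 probe sets 1 symbol, 932 several and 9211 none. A gene's most abundant probe set had the highest mean over the 6 arrays. Named were all members and, per pathway list, up to 4 genes above background with the smallest p. Ptgs2, Cxcl1 and Socs3 were named outside this rule. Of 174 list entries 162 were matched, 4 through older symbols. Members and lists were chosen with earlier results of these data known. Precision rests on 3 arrays per group. Replicate arrays are labelled as biological, but p-values measure only the spread between these samples. The code was tested on simulated data. Same-numbered arrays deviated together by correlations of -0.0852, 0.041 and 0.103, and the numbers were not taken to pair the samples. With 3 arrays per group these values cannot exclude a pairing. Alternatives were quantile normalization, median centring, a filter on dim probe sets, a trended robust prior, array weights, other probe set summaries, a replicate block and leaving out each array.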

Additional observations from a re-analysis of the deposited data

How the results depend on the processing

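No member passed an adjusted p of 0.05 or the study's thresholds under any of the 8 alternatives or with any array left out (0 in each). The count of member probe sets lower at an unadjusted p under 0.05 was 1 with 1 probe set per gene and 1 with the mean of a gene's probe sets, both of which test fewer probe sets, and 1 to 3 with 1 array left out (1 without shControl replicate 2, shControl replicate 3 or shTNC replicate 3). The count higher was 1 with probe sets near background left out, since Il6 is then not tested, and 2 to 3 with 1 array left out. The members' median difference was 0.0664 to 0.173 with 1 array left out. With the replicate block, 3 probe sets were lower and 3 higher, Il1b among the latter, at 0.44 with an adjusted p of 0.263 by limma. The unadjusted p of Il1b by limma was 0.00276 with the block and 0.0657 without it. Of 125 values of member differences 119 kept their direction. The reversed ones were near 0. Il6st was -0.0797 as the mean of its probe sets and -0.0372 to 0.0313 with 1 array left out, Il1rn was -0.00405 to 0.102 and Osmr -0.142 to 0.00294. The causes were not tested. With a stricter background level, the 99th percentile, 7 members were above background, and with the 75th percentile 9 were. Array signal over background limits Il6, Il1rn and the other probe sets near 7.48, and also the shControl level of Il1a.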
